A study of Mus musculus with 9 samples.

Results

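The genes that make, bind, sense and break down hyaluronan were examined in mouse primary myoblasts given a BMP ligand or a BMP antagonist. The set held 9 of the 24011 genes with a named probe set on the array: the hyaluronan synthases Has1, Has2 and Has3, the antisense transcript Has2os, the hyaluronidases Hyal1 and Hyal2, the receptor Cd44, the proteoglycan Vcan and the link protein Hapln1. They were picked by gene symbol, with the large negative value of Has2os in GREM1 against control already known from an earlier analysis of the same arrays. For that reason the members' values in the contrasts that use the GREM1 arrays are given as a description, without p-values, and only BMP4 against control is given with a test. That test shares the control arrays, and the members were chosen with earlier results of these data known. Its p-values do not account for that choice. The myoblasts were derived from satellite cells of skeletal muscle, grown in 20% fetal bovine serum and then kept in 2% horse serum, and RNA was taken at 24 h. The groups were BMP4 (100 ng/ml), GREM1 (500 ng/ml) and mock-treated control, with 3 arrays each. No allele, strain or age is given in the labels, and they do not say whether the replicates were separate cultures, so a p-value here reflects only how far these arrays spread, and that spread may be technical.

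Hyaluronan is an unbranched polysaccharide without a protein core. The HAS enzymes polymerise it at the plasma membrane from the nucleotide sugars UDP-glucuronic acid and UDP-N-acetylglucosamine and push the chain out of the cell as it grows. Versican, aggrecan and their relatives hang on the chain and are locked to it by link proteins, CD44 binds it at the cell surface, and hyaluronidases cut it. In muscle, a hyaluronan-rich matrix surrounds activated satellite cells. BMP4 is a growth factor whose receptors phosphorylate SMAD proteins, which then act on target genes in the nucleus. Gremlin 1, the product of GREM1, captures BMP ligands outside the cell and so keeps them from their receptors.

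The median of an array ran between 5.00 and 5.12 (log2). Control replicate 1 stood apart on the second principal component (20.9% of the variance), at 31.6, with the next array at 6.12, and values without it are given beside the results it moves. The myoblast label was borne out by the level of its markers, though single markers differed between the groups. All 8 listed were above the filter on dim genes, with a summed linear level of 8322 to 8745 with BMP4, 8836 to 9388 with GREM1 and 6183 to 8358 in controls, and the muscle intermediate filament gene Des averaged 11.3 ± 0.090 with BMP4, 11.4 ± 0.040 with GREM1 and 11.0 ± 0.35 in controls (log2, SD, n = 3 each). GREM1 minus control was 0.91 for Cdh15 and 1.00 for Itga7 (limma, adjusted p = 0.00348 and 0.00321). For Myf5 it was -0.85 (limma, adjusted p = 0.144, or 9.74e-04 with the replicate number taken into account). Pax7 was at -0.20 and Myod1, Des, Chrna1 and Megf10 were at 0.27, 0.32, 0.20 and 0.41, and none of these passed. The part of such marker differences in the results below was not tested. Hyaluronan genes are also active in fibroblasts. Of 9 fibroblast or fibro-adipogenic markers measured, 5 (Thy1, Clec3b, Col15a1, Pi16 and Mfap5) were above the filter and Pdgfra, Dcn, Lum and Dpt below it. Thy1, the brightest, averaged 5.55 with BMP4, 5.73 with GREM1 and 5.60 in controls, and the summed linear level of the 9 was 166.9 to 183.5 with BMP4, 176.6 to 177.3 with GREM1 and 172.8 to 176.1 in controls. Of 5 smooth muscle or pericyte markers, Kcnj8 was below the filter. Their summed level was 225.6 to 250.2 with BMP4, 292 to 313 with GREM1 and 229.7 to 249.5 in controls, but they did not move together. GREM1 minus control was 0.88 for Abcc9 (limma, adjusted p = 0.0528, or 9.16e-04 with the replicate number taken into account). It was 0.12 for Notch3, 0.042 for Myh11 and -0.20 for Rgs5, and none of these passed. The part of the pericyte markers in the results below was not tested. Endothelial and leukocyte lists had sums whose ranges overlapped between GREM1 and control. Between BMP4 and GREM1 the endothelial ranges overlapped too, but the leukocyte ranges did not. The leukocyte sum was 140.0 to 156.2 with BMP4, 128.2 to 139.5 with GREM1 and 135.5 to 153.2 in controls. Of 5 leukocyte markers measured, Cd68 and Csf1r were above the filter and Ptprc, Adgre1 and Cd3e below it, and Cd68 averaged 6.56 with BMP4, 6.39 with GREM1 and 6.54 in controls. In such bulk RNA, fewer cells of a type and less RNA per cell cannot be told apart.

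Of the 9 genes, 4 differed little between the groups (Has1, Has3, Hyal1 and Hyal2), 1 was too dim to test (Hapln1), and 3 followed one order of group means, highest with BMP4 and lowest with GREM1 (Has2, Has2os and Vcan). For Vcan the BMP4 and control arrays overlapped. Cd44 also had its lowest mean with GREM1, but its groups overlapped. Levels below are log2 RMA values and are set against each other within a gene only, since probe sets of different genes cannot be compared in level.

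**Figure D1:**
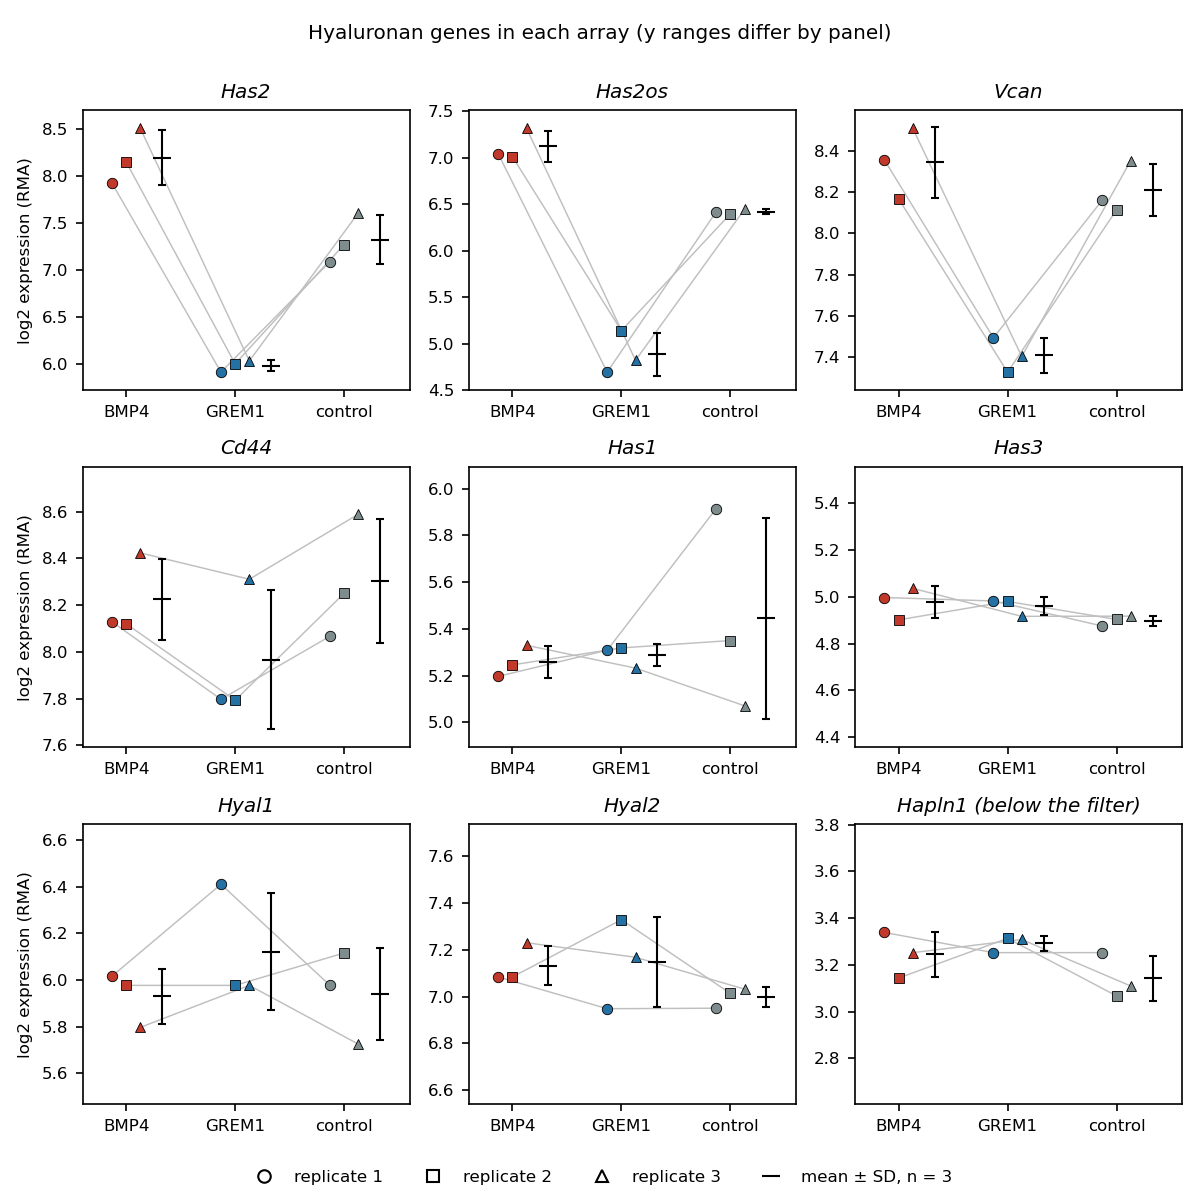
Log2 expression (y axis, RMA units, a separate range in each panel) of the 9 hyaluronan genes in BMP4, GREM1 and control arrays. Each point is 1 array, its shape gives the replicate number, grey lines join equal numbers, and black bars are the mean ± SD of 3 arrays. The GREM1 points of Has2, Has2os and Vcan lie below every other point of the same panel.

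Has2 encodes the main hyaluronan synthase of mesenchymal cells, and mouse embryos that lack it fail to form the cardiac cushions. Its values were 7.92, 8.15 and 8.51 with BMP4, 5.91, 6.0 and 6.03 with GREM1 and 7.09, 7.27 and 7.60 in controls. The 3 groups did not overlap in any pair, and the GREM1 arrays lay within an SD of 0.062, against 0.29 for BMP4 and 0.26 for controls. With BMP4, Has2 was 0.87 ± 0.16 above control (SE, a 1.83-fold difference), which did not pass in limma (adjusted p = 0.115). In the paired fit, which takes the replicate number into account, the same difference had an SE of 0.10 and passed (limma, adjusted p = 0.0138), but not once control replicate 1 was left out as well (0.84, adjusted p = 0.106). Over all other alternatives the adjusted p ran up to 0.398. With GREM1, Has2 was lower than in controls by 1.34 ± 0.16 (SE), 2.53-fold, and the value was -1.46 without control replicate 1. The difference between ligand and antagonist, BMP4 minus GREM1, was 2.21 ± 0.16, or 4.64-fold. Both differences that involve GREM1 were several times the SD within any group.

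Has2os is a long noncoding RNA transcribed from the strand opposite Has2, and in human cells its counterpart HAS2-AS1 is known as a regulator of HAS2 transcription. In the RefSeq gene table its span overlaps that of Has2 on chromosome 15. The chip definition is not given in the sources used here, so it is not known how fully the probe sets keep the strands apart. Has2os stood at 7.04, 7.01 and 7.32 with BMP4, at 4.70, 5.14 and 4.82 with GREM1 and at 6.42, 6.40 and 6.45 in controls. The order of the groups was that of Has2, again with no overlap, and the controls were within 0.025 (SD) of each other. With BMP4 it was 0.70 ± 0.13 above control (SE, 1.63-fold), which did not pass (limma, adjusted p = 0.0925, or 0.0663 in the paired fit). With GREM1 it was lower by 1.53 ± 0.13, or 2.90-fold, and BMP4 minus GREM1 was 2.24 ± 0.13, or 4.72-fold. The GREM1 mean of Has2os, 4.89, lay below the array medians of 5.00 to 5.12. RMA compresses differences near background, so the size of both folds with GREM1 is uncertain. Across the 9 arrays Has2 and Has2os correlated at r = 0.98, and at r = 0.49 once group means were taken out, both given as descriptions.

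Vcan encodes versican, a large chondroitin sulfate proteoglycan that binds hyaluronan through its N-terminal link modules and is abundant in the matrix of growing and regenerating muscle. Its values were 8.35, 8.17 and 8.51 with BMP4, 7.49, 7.33 and 7.40 with GREM1 and 8.16, 8.11 and 8.35 in controls. The BMP4 and control arrays overlapped, and the GREM1 arrays were apart from both. BMP4 minus control was 0.13 ± 0.11 (SE) and did not pass (limma, adjusted p = 0.773), with a 95% interval of -0.11 to 0.38. GREM1 minus control was -0.80 ± 0.11, a 1.74-fold lower level with GREM1, and -0.82 without control replicate 1. BMP4 minus GREM1 was 0.93 ± 0.11, or 1.91-fold. Across the arrays Vcan correlated with Has2 at r = 0.94 and at r = 0.58 after group means were taken out.

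The promoter of Vcan is printed because Vcan is the member with a GREM1 difference for which the RefSeq table (GRCm38.p6) holds one. That table has promoters for 6 of the 9 members, from 250 bases before the start of the gene to 50 after it. The window is chr13:89742463-89742762 on the minus strand, written 5′ to 3′, with motif matches in capitals:
Vcan: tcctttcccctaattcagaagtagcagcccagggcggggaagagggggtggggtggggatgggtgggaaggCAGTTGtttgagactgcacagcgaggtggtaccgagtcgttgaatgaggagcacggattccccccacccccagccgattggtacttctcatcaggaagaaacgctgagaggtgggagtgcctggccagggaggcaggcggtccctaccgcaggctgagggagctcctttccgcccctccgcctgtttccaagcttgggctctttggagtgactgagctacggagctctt
Both strands were searched for GGCGCC, the GC-rich element that SMADs of the BMP branch bind, for CAGAC, a general SMAD element, and for CANNTG, the E-box of myogenic factors such as MYOD1. None of these patterns overlaps another in the windows printed here. The Vcan window held 1 match, an E-box at position -179 from the start of the gene, and 0 matches to either SMAD pattern. Among 32851 promoters of this length in the table, 11.9% hold GGCGCC, 49.6% CAGAC and 72.3% CANNTG. The windows of Cd44 and Hyal2 held 0 matches to all of them, that of Hyal1 held 1 CAGAC and 1 CANNTG, that of Has1 held 2 CAGAC and 2 CANNTG, and that of Hapln1 1 CAGAC.

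Hapln1 encodes the link protein that pins versican and aggrecan to hyaluronan, and it is the chromosomal neighbour of Vcan on chromosome 13. Its probe set gave 3.34, 3.14 and 3.25 with BMP4, 3.25, 3.31 and 3.31 with GREM1 and 3.25, 3.07 and 3.11 in controls. All of these were below the filter, which stood at 3.89 to 4.02, so Hapln1 was not tested and no fold is given.

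Cd44, the cell surface receptor that ties cells to hyaluronan, had values of 8.13, 8.12 and 8.42 with BMP4, 7.80, 7.79 and 8.31 with GREM1 and 8.07, 8.25 and 8.59 in controls. In each group replicate 3 was the highest, and the groups overlapped. BMP4 minus control was -0.078 ± 0.18 (SE, limma, adjusted p = 0.929). GREM1 minus control was -0.34 ± 0.18, with -0.27, -0.46 and -0.28 for arrays 1, 2 and 3 set against the control of the same number. Taken by number, all 3 GREM1 arrays thus lay below their control, which narrowed the SE to 0.084 in the paired fit, and there Cd44 came past the threshold, also a description. Without control replicate 1 the unpaired value was -0.45. BMP4 minus GREM1 was 0.26 ± 0.18.

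The probe sets of the other hyaluronan synthases did not share the pattern of Has2. Their group means, 5.26 to 5.45 for Has1 and 4.90 to 4.98 for Has3, lay near the array medians of 5.00 to 5.12. RMA compresses differences near background, so these values do not show whether an expressed gene stayed unchanged. Has1 had values of 5.20, 5.25 and 5.33 with BMP4, 5.31, 5.32 and 5.23 with GREM1 and 5.91, 5.35 and 5.07 in controls. The controls spread more widely than any other group, with the array that stands apart at their top and another control at the bottom of all 9. BMP4 minus control was -0.19 ± 0.18 (SE, limma, adjusted p = 0.813) and changed to 0.047 without control replicate 1, and GREM1 minus control was -0.16, or 0.076 without that array. Has3, which makes shorter chains in enzyme assays, had values of 5.00, 4.90 and 5.04 with BMP4, 4.98, 4.98 and 4.92 with GREM1 and 4.87, 4.90 and 4.92 in controls. The groups overlapped, and BMP4 minus control was 0.080 ± 0.073 (limma, adjusted p = 0.807). Its 95% interval was -0.084 to 0.24, which bounds the measured value and, for so dim a probe set, not the change in its RNA.

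Hyal1, a lysosomal hyaluronidase, and Hyal2, a GPI-anchored one that starts the cleavage of long chains at the cell surface, lie next to each other on chromosome 9. Hyal1 had values of 6.02, 5.98 and 5.80 with BMP4, 6.41, 5.98 and 5.98 with GREM1 and 5.98, 6.12 and 5.73 in controls. The groups overlapped, with 1 GREM1 array above the rest, and 4 arrays held the same value to the last deposited digit (43.2% of all tested genes had at least 2 such arrays). BMP4 minus control was -0.0093 ± 0.14 (SE, limma, adjusted p = 0.990), a value whose sign changed with the processing. Hyal2 had values of 7.08, 7.08 and 7.23 with BMP4, 6.95, 7.33 and 7.17 with GREM1 and 6.95, 7.01 and 7.03 in controls. Its BMP4 arrays lay just above the controls, by 0.13 ± 0.10 (limma, adjusted p = 0.762). GREM1 minus control was 0.18 for Hyal1 and 0.15 for Hyal2, in each case with overlapping arrays.

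In BMP4 against control, 0 of the 8 members above the filter passed in limma, where 0.117% of all tested genes did (0.0933% above control and 0.0233% below). Has2 and Has2os were the 2 with an unadjusted p under 0.05, and in the paired fit Has2 alone passed, against 0.379% of all genes. In 3 of the 8 (Has2, Has2os and Hyal2) the BMP4 and control arrays did not overlap, as in 11.2% of all genes. The counts in the contrasts with GREM1 describe genes gathered with the GREM1 value of Has2os known, and nothing is read from them. In GREM1 against control 3 of 8, Has2, Has2os and Vcan, were lower and past the threshold, which 2.21% of all genes were, and 4.28% in either direction. With the block 4 of 8 passed, Cd44 being the fourth, against 11.6% of all genes, and 3 when control replicate 1 was also left out. Between BMP4 and GREM1 the same 3, Has2, Has2os and Vcan, were higher with BMP4, as were 3.62% of all genes, with 6.45% past the threshold in either direction and 12.8% with the block. In each contrast with GREM1, 3 of 8 had arrays that did not overlap, against 24.0% of all genes in GREM1 against control and 24.5% in BMP4 against GREM1. The median difference over the 8 was 0.11 for BMP4 minus control, -0.25 for GREM1 minus control and 0.14 for BMP4 minus GREM1. The medians over all tested genes were -0.0060, -0.0057 and -2.33e-05. The comparisons with control share the same control arrays.

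**Figure D2:**
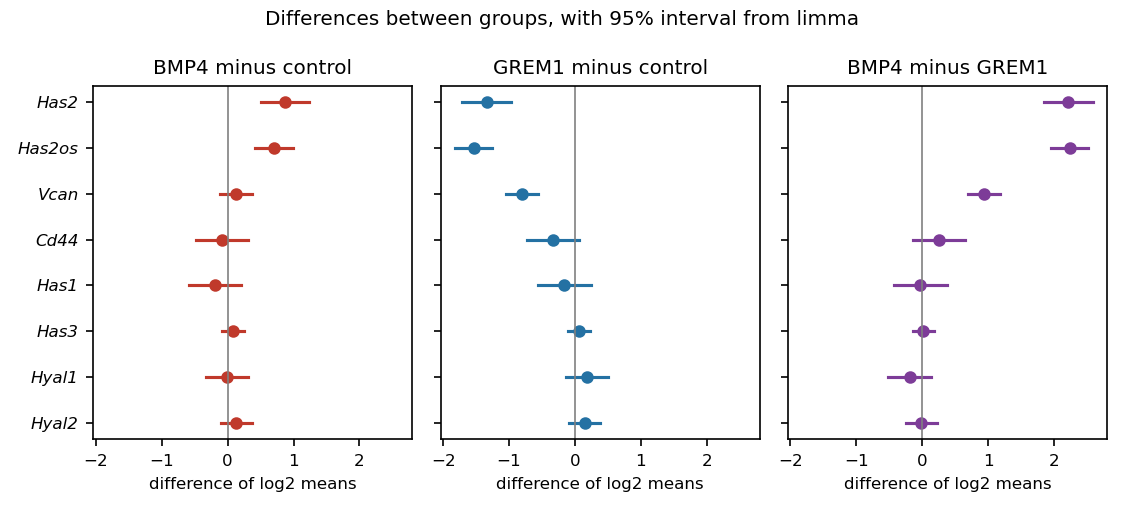
Differences of log2 group means (x axis) for the 8 hyaluronan genes above the filter, in BMP4 minus control, GREM1 minus control and BMP4 minus GREM1. Points are limma estimates and bars their 95% intervals, and Has2 and Has2os reach 2.21 and 2.24 in BMP4 minus GREM1, while Has1, Has3, Hyal1 and Hyal2 stay near 0.

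The rest of the pathway was followed in 49 companion genes listed by role, of which 47 had a probe set and 35 were above the filter. The list follows their roles, but it was drawn up with earlier results of these data known. The genes are tested in every comparison, and their p-values do not account for that knowledge. In BMP4 against control 0 of 35 passed in limma, with 3 at an unadjusted p under 0.05 (Gnpnat1, Cemip2 and Tnc), and 0 passed in the paired fit. In GREM1 against control 2 of 35 rose, Cemip and Gfpt1, and 0 fell, where 2.07% of all genes rose and 2.21% fell. In the paired fit 9 of 35 passed, 5 higher and 4 lower, against 11.6% of all genes. In BMP4 against GREM1 2 were higher, Ugdh and Hmmr, and 2 lower, Cemip and Adamts4, against 3.62% and 2.83% of all genes. The median over the 35 was -0.021, 0.018 and -0.069 in BMP4 against control, GREM1 against control and BMP4 against GREM1, beside the medians of all genes given above. The counts are small, so the account below goes by gene.

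**Figure D3:**
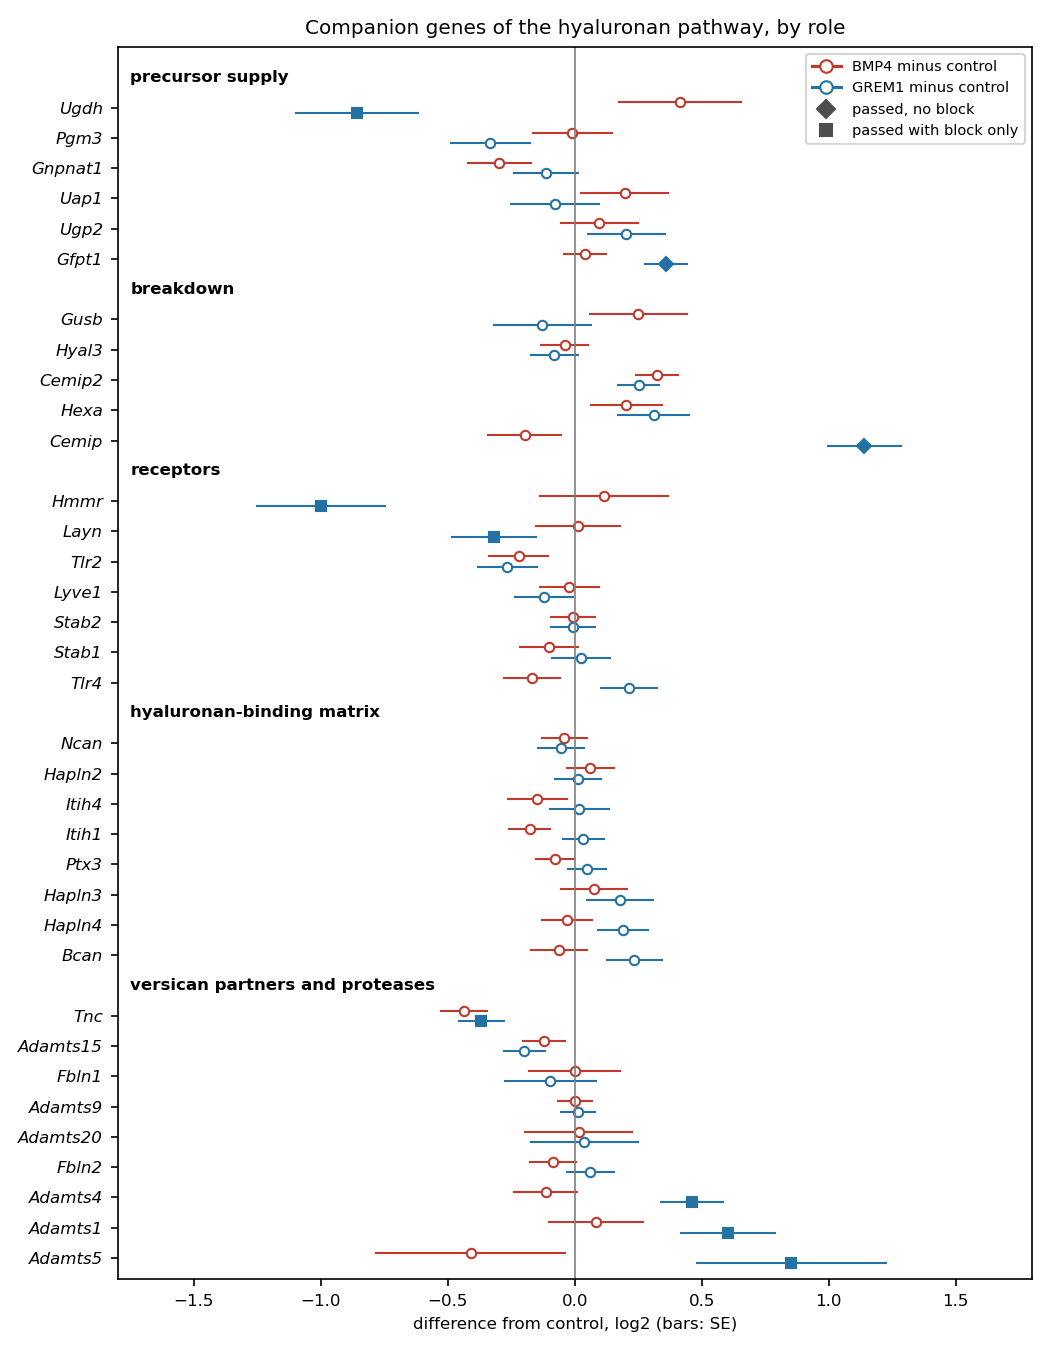
Differences from control on the log2 scale (x axis, bars are the SE) of the 35 companion genes above the filter, grouped by role, with BMP4 minus control above GREM1 minus control in each row. Filled diamonds passed in limma without the block, filled squares in the paired fit only, and open circles in neither, and all filled symbols belong to GREM1 minus control.

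Among genes that supply the sugar precursors, Ugdh, which oxidises UDP-glucose to the UDP-glucuronic acid that HAS enzymes use, had the order of Has2. Its values were 8.87, 9.06 and 9.43 with BMP4, 7.57, 7.77 and 8.20 with GREM1 and 8.36, 8.56 and 9.20 in controls. In every group the value of replicate 3 was the highest, and each GREM1 array was below all controls. GREM1 minus control was -0.86 ± 0.24 (SE), which did not pass in limma (adjusted p = 0.0812) and passed in the paired fit (adjusted p = 0.00110). BMP4 minus control was 0.41 ± 0.24 (limma, adjusted p = 0.702), positive for all 3 replicate numbers. BMP4 minus GREM1 was 1.27 ± 0.24 and passed (limma, adjusted p = 0.0139), but not without BMP4 replicate 3 or GREM1 replicate 1 or 2 (largest adjusted p = 0.0652). Gfpt1, the first enzyme of the hexosamine pathway that leads to UDP-N-acetylglucosamine, rose instead. It stood at 7.87, 8.06 and 8.08 with GREM1, against 7.64, 7.69 and 7.60 in controls, a rise of 0.36 ± 0.082 (limma, adjusted p = 0.0426). The call was lost without any one control, without GREM1 replicate 2 or 3, without BMP4 replicate 1 or 2 and under 3 of the other alternatives (largest adjusted p = 0.144). Gnpnat1, the glucosamine-phosphate acetyltransferase of the same pathway, was -0.30 with BMP4 and -0.11 with GREM1 (adjusted p = 0.602 and 0.674).

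The promoter window of Ugdh, chr5:65435793-65436092 on the minus strand (RefSeq, GRCm38.p6), is shown as that of the precursor enzyme that went lower with GREM1 in the paired fit, and it held 0 matches to the patterns searched:
Ugdh: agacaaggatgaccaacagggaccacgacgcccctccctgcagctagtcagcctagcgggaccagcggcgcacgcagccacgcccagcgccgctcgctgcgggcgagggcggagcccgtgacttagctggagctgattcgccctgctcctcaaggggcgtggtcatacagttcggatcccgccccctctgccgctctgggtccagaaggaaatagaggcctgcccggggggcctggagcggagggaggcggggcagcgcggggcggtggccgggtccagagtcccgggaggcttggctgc

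Among genes of hyaluronan breakdown, Cemip moved the most. It encodes a secreted protein that binds hyaluronan and is needed for its depolymerisation by skin fibroblasts. Its values were 5.47, 5.57 and 5.07 with BMP4, 6.54, 6.67 and 6.91 with GREM1 and 5.54, 5.67 and 5.49 in controls. Every GREM1 array was above every other array, the reverse of the order seen for Has2. It rose by 1.14 ± 0.14 (SE) with GREM1 (limma, adjusted p = 0.00376) and passed without any one array (1.04 to 1.22, largest adjusted p = 0.0217). BMP4 minus control was -0.20 ± 0.14 (limma, adjusted p = 0.748), and BMP4 minus GREM1 was -1.34 ± 0.14 (limma, adjusted p = 5.97e-04). Its relative Cemip2, a transmembrane hyaluronan-degrading protein, had values of 8.09, 7.85 and 7.96 with BMP4, 7.90, 7.85 and 7.92 with GREM1 and 7.61, 7.69 and 7.62 in controls. Both treatments lay above the controls without overlap, but neither 0.32 nor 0.25 passed (limma, adjusted p = 0.324 and 0.121). Hexa, a lysosomal subunit that trims the fragments, was 0.20 with BMP4 and 0.31 with GREM1 (adjusted p = 0.741 and 0.253). Hyal4, Hyal5, Hyal6 and Spam1, other genes of the hyaluronidase family, were below the filter.

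The promoter window of Cemip, chr7:84086456-84086755 on the minus strand (RefSeq, GRCm38.p6), is shown as that of the gene with the opposite order, with the matches in capitals:
Cemip: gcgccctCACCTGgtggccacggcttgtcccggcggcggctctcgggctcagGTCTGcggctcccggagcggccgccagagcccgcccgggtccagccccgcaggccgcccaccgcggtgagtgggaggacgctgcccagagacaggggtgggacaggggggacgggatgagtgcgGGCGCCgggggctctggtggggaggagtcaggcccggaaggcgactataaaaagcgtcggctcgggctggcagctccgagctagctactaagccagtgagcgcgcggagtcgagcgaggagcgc
It held 1 GGCGCC at position -74, 1 CAGAC on the opposite strand at -198 and 1 E-box at -243. Of the 5 companion genes past the threshold in any comparison, 4 had a promoter in the table.

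**Figure D4:**
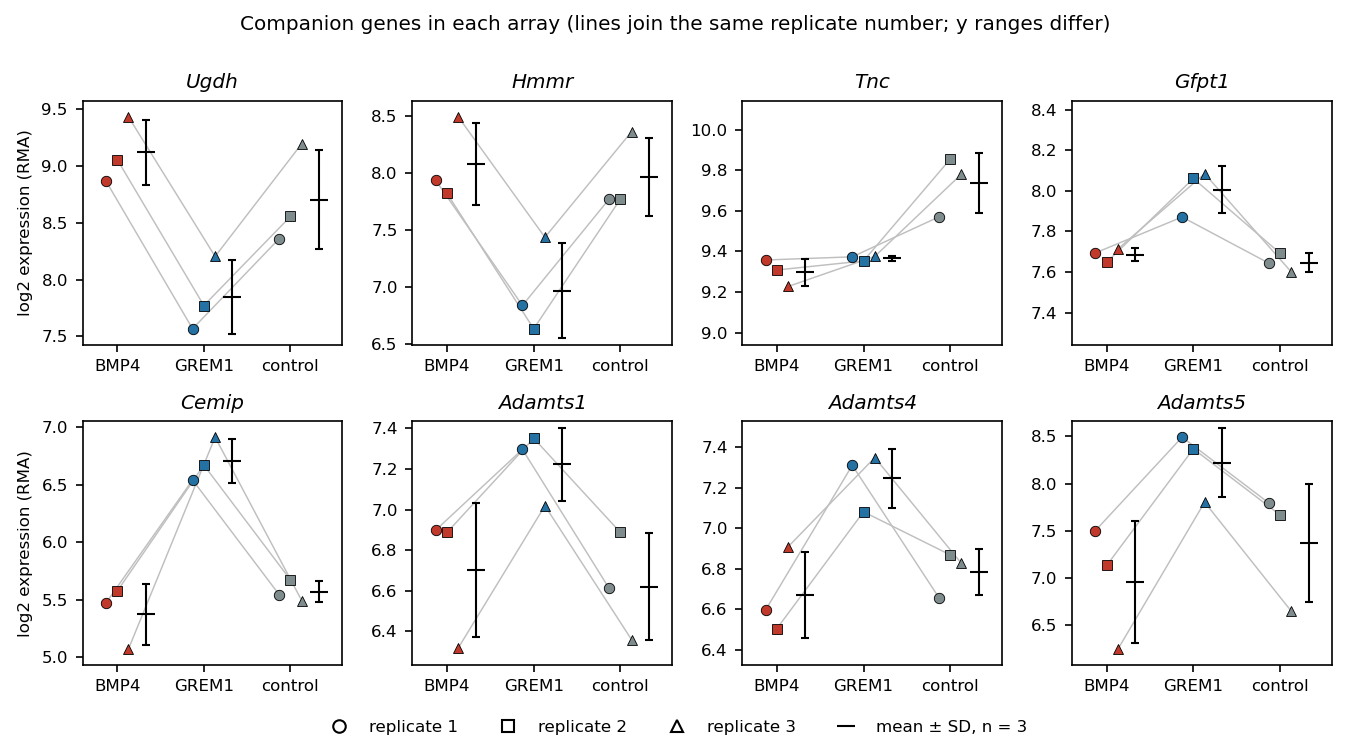
Log2 expression (y axis, RMA units, a separate range in each panel) of 8 companion genes in BMP4, GREM1 and control arrays, with 1 point per array, lines between equal replicate numbers and black bars for the mean ± SD of 3 arrays. The lines of Ugdh, Hmmr and Adamts5 run nearly parallel, with replicate 3 highest in the first pair and lowest in Adamts5, and the GREM1 points of Cemip, Adamts1, Adamts4 and Adamts5 lie above the controls.

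Of the other hyaluronan receptors, Hmmr had values of 7.93, 7.82 and 8.49 with BMP4, 6.84, 6.63 and 7.43 with GREM1 and 7.77, 7.77 and 8.36 in controls. It encodes RHAMM, which binds hyaluronan at the surface and is also a protein of the mitotic spindle. The GREM1 arrays were below all others, and GREM1 minus control was -1.0 ± 0.25 (SE, limma, adjusted p = 0.0573, or 5.85e-04 in the paired fit). BMP4 minus GREM1 was 1.11 ± 0.25 and passed (limma, adjusted p = 0.0306), a call lost without any one BMP4 array and without GREM1 replicate 1 or 2 (largest adjusted p = 0.118), and with only these groups fitted (adjusted p = 0.0502). Layn, a C-type lectin receptor for hyaluronan, was -0.32 with GREM1 (limma, adjusted p = 0.321, or 0.0449 in the paired fit). The pattern recognition receptors Tlr2 and Tlr4, which hyaluronan fragments can engage, were -0.27 and 0.21 with GREM1 (adjusted p = 0.238 and 0.320). The endothelial and macrophage receptors Lyve1, Stab1 and Stab2 ranged from -0.12 to 0.026 with GREM1. Their group means, 3.99 to 4.64, were below the array medians, where RMA compresses differences.

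Other hyaluronan-binding matrix genes gave no call, in BMP4 against control, GREM1 against control or BMP4 against GREM1 (0 of 8 in limma, with 0, 0 and 2 at an unadjusted p under 0.05). Their group means ran from 3.93 for Bcan with BMP4, at the filter level, to 5.23 for Hapln3 with GREM1, near the array medians. RMA compresses differences near background, so the lack of calls does not show that an expressed gene stayed unchanged. The inter-alpha-trypsin inhibitor heavy chain gene Itih1, the brain lectican Bcan and the link protein Hapln4 were 0.033, 0.23 and 0.19 with GREM1 (adjusted p = 0.865, 0.274 and 0.330). Acan, which encodes aggrecan, and Tnfaip6, which transfers heavy chains onto hyaluronan, were below the filter.

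Of 9 versican partners and proteases above the filter, 0 passed in GREM1 against control in limma. At an unadjusted p under 0.05 there were 5, but the share of all genes at that level was not counted, so nothing is read from it. In the paired fit 4 passed, against 11.6% of all genes. Of these 4, 3 were higher with GREM1 (Adamts1, Adamts4 and Adamts5, metalloproteinases that cut versican) and Tnc was lower. Adamts1 had values of 7.30, 7.35 and 7.02 with GREM1, against 6.61, 6.89 and 6.36 in controls, a difference of 0.60 ± 0.18 (SE, limma, adjusted p = 0.103, or 0.00551 in the paired fit). Adamts4 had values of 7.31, 7.08 and 7.35 with GREM1, against 6.66, 6.87 and 6.83 in controls, a difference of 0.46 ± 0.12 (limma, adjusted p = 0.0704, or 0.0273 in the paired fit). Adamts5 had values of 8.49, 8.37 and 7.80 with GREM1, against 7.79, 7.67 and 6.65 in controls, a difference of 0.85 ± 0.37 (limma, adjusted p = 0.240, or 0.00346 in the paired fit). In none of these did the GREM1 and control arrays overlap, which held for 24.0% of all genes. For Adamts5 the third GREM1 array was barely above the top control. With BMP4 their values were 0.082, -0.11 and -0.41 (adjusted p = 0.929, 0.837 and 0.806). BMP4 minus GREM1 was -0.58 ± 0.12 for Adamts4 and passed (limma, adjusted p = 0.0249), but not without BMP4 replicate 1 or 2 or GREM1 replicate 1 or 3 (largest adjusted p = 0.0990), nor with only these groups fitted (adjusted p = 0.0513). For Adamts1 and Adamts5 it was -0.52 and -1.26 (adjusted p = 0.149 and 0.0840). Adamts9, Adamts15 and Adamts20, proteases listed in the same role, were 0.013, -0.20 and 0.038 with GREM1 (limma, adjusted p = 0.943, 0.213 and 0.949). For Adamts15 every GREM1 array lay below every control, so the listed proteases did not move together. Group means of Adamts9 and Adamts15, 4.35 to 4.70, were below the array medians, where RMA compresses differences. Tnc, the versican-binding matrix protein tenascin-C, had values of 9.36, 9.31 and 9.23 with BMP4, 9.37, 9.35 and 9.38 with GREM1 and 9.57, 9.85 and 9.78 in controls. Here both treatments lay below the controls, by -0.44 ± 0.090 and -0.37 ± 0.090 (limma, adjusted p = 0.183 and 0.0527, the second being 0.0366 in the paired fit).

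The genes whose values followed Has2 most closely over the 9 arrays were Car8 (r = 0.995), Crim1 (0.992), Ube2j1 (0.992), Kctd12 (0.990) and Dlx2 (0.990). Car8 is a carbonic anhydrase-related protein, Crim1 a BMP-binding membrane protein and Dlx2 a homeobox transcription factor. After group means were taken out the same genes correlated with Has2 at 0.92, 0.92, 0.79, 0.88 and 0.79. They were picked from all tested genes on these same arrays, which by itself favours high values within groups too. For Has2os the closest were Kctd12 (0.994), the prostaglandin E2 receptor Ptger4 (0.991), the secreted proteoglycan Esm1 (0.990), Dynap (0.988) and the glutathione synthesis subunit Gclm (0.987). Within groups these stood at 0.74, 0.58, 0.58, 0.53 and 0.31. Arrays of 1 group share a treatment and arrays of 1 number may share a culture, so these values describe likeness over 9 points.

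The nearest tested protein-coding genes on either side of Has2 on chromosome 15, looked up after its values were seen, were Sntb1 and Zhx2. With GREM1 they were 0.69 ± 0.22 and 0.79 ± 0.24 (SE, limma, adjusted p = 0.109 and 0.0970), opposite in sign to Has2, and with BMP4 0.056 and 0.13. Around Vcan on chromosome 13, Xrcc4 and Edil3 were -0.021 and 0.15 with GREM1 (adjusted p = 0.965 and 0.660). None of these flanking genes passed the threshold with GREM1.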

How the data were processed

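Expression was measured on 9 Affymetrix arrays. The deposited values are on the log2 scale and, according to the submitters' processing notes, the authors made them in Affymetrix Expression Console by robust multi-array average (RMA). RMA removes background, brings the arrays to a common distribution and gives 1 value per probe set, which compresses differences near background. Chip definition and genome build: not given in the sources used here.

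Of 24973 probe sets, 24015 had 1 gene symbol, 0 had several and 958 had none and were left out. Through Entrez identifiers 23922 matched the RefSeq gene table and 0 symbols changed. For 4 genes with several probe sets the brightest was used, which left 24011 genes, and each hyaluronan gene had 1. Genes entered the fit when 3 or more arrays exceeded the 30th percentile among that array's named probe sets (3.89 to 4.02), which kept 17142.

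Differences were fitted with limma 3.58.1 in R 4.3.3 on all 9 arrays (6 residual and 3.47 prior degrees of freedom), two-sided, with Benjamini-Hochberg adjustment over all tested genes of a comparison and a threshold of 0.05. The share of all genes at an unadjusted p under 0.05 was not counted, so counts at that level stand without it. The code was tested on simulated data. A standard error (SE) is limma's, and an SD is that of 3 arrays. Precision is limited by how many arrays there are.

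The members and lists were chosen with earlier results of these data known. The companion genes named are those past the threshold and, in each role, the 3 with the smallest unadjusted p against control. Adamts5 and Layn were named for their values in the paired fit, after these were seen. Replicate numbers come from the sample titles. Deviations from group means of arrays with the same number correlated at 0.34, 0.17 and 0.58 between BMP4 and control and at 0.24, 0.12 and 0.47 between GREM1 and control, so a fit with the number as a block (the paired fit) is given beside results against control where it changed a call. Between BMP4 and GREM1 the values were 0.22, 0.088 and 0.42. Each BMP4 array correlated best with the control of its own number. GREM1 replicate 2 correlated best with control replicate 1, and BMP4 replicate 1 with GREM1 replicate 2. Pairing is thus little better borne out for GREM1 against control than for BMP4 against GREM1. Calls that pass only in the paired fit depend on it. The alternatives were this block, fitting the compared groups alone, an intensity trend, a second quantile normalization, median centring, no filter, a filter at the 50th percentile, the mean of probe sets and leaving out each array. The block without control replicate 1 was added after seeing the data.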

Additional observations from a re-analysis of the deposited data

How the results depend on the processing

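For the 8 hyaluronan genes, differences in the contrasts with GREM1 moved by no more than 1 pooled SD between arrays in 286 of 286 recomputed values over all alternatives. Among values near 0, signs changed for Has1 in GREM1 against control (-0.35 to 0.076 over the fits without 1 array, and 0.086 with the block and without control replicate 1) and in BMP4 against GREM1 for Has1 (-0.065 to 0.0013), Has3 (-0.010 to 0.057) and Hyal2 (-0.12 to 0.075). In BMP4 against control 0 members passed in every fit without 1 array and 1 with the replicate block, which is Has2. There Has1 ran from -0.37 to 0.047 over the fits without 1 array, and was 0.057 with the replicate block and without control replicate 1. Hyal1 ran from -0.12 to 0.079 and was 0.0033 after a second quantile normalization and 0.024 after median centring, and Cd44 ran from -0.20 to 0.065. The count of companion genes in GREM1 against control was 2, and was 9 with the replicate block, 6 with the block and without control replicate 1, 1 with only the groups compared, 5 after quantile normalization, 4 with the stricter filter and 1 to 4 without 1 array (1 without BMP4 replicate 1 or 2, GREM1 replicate 2 or control replicate 2 or 3, and 4 without BMP4 replicate 3). In BMP4 against GREM1 it was 4, and was 10 with the replicate block, 11 with the block and without control replicate 1, 2 with only the groups compared and 2 to 5 without 1 array (2 without any one BMP4 array or GREM1 replicate 1 or 2). The causes were not tested. In both contrasts with GREM1 the replicate numbers were only partly alike, so the counts with the block rest on a pairing that is not established. In BMP4 against control the count of companion genes was 0 under all alternatives. All genes past the threshold numbered 20, 734 and 1105 in BMP4 against control, GREM1 against control and BMP4 against GREM1, and 65, 1985 and 2192 with the block. No depth is known for arrays, and dim genes such as Hapln1 are limited by background.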

Other observations

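Versican carries chondroitin sulfate chains, and enzymes that build glycosaminoglycans were therefore listed by role after the hyaluronan values had been seen. Of 22 genes of chondroitin sulfate synthesis, 21 were above the filter, and 2 of them fell with GREM1 against control (0 rose, where 2.21% of all genes fell). These were the chondroitin 4-sulfotransferase Chst11, by 0.55 ± 0.080 (SE, limma, adjusted p = 0.00738), and the dermatan sulfate epimerase Dsel, by 0.52 ± 0.12 (adjusted p = 0.0452). Between BMP4 and GREM1, 4 of the 21 were higher with BMP4 (3.62% of all genes): Chst11 (0.90), Dsel (0.60), the chondroitin synthase Chsy1 (0.56) and the polymerizing factor Chpf2 (0.41, the largest adjusted p = 0.0492). With BMP4 against control 0 of 21 passed in limma, 2 having an unadjusted p under 0.05.

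In heparan sulfate synthesis 2 of 15 genes above the filter fell with GREM1 and 0 rose (2.21% and 2.07% of all genes). In the paired fit 1 rose as well, Extl2 (0.36, adjusted p = 0.0351), where 11.6% of all genes passed in either direction. The polymerase subunit Ext1 fell by 0.92 ± 0.14 (SE, limma, adjusted p = 0.00829) and the sulfotransferase Ndst3 by 0.87 ± 0.18 (adjusted p = 0.0289). Ext1 was 0.81 ± 0.14 above control with BMP4, which did not pass (adjusted p = 0.0783, or 0.0176 with the replicate block), and BMP4 minus GREM1 was 1.72 ± 0.14 (adjusted p = 1.18e-04). The sulfotransferase Hs6st2 was lower with BMP4 than with GREM1, at -0.51 (adjusted p = 0.00538). Among 15 small, membrane and basement membrane proteoglycans above the filter, 2 passed in GREM1 against control, where 4.28% of all genes did. Aspn, an inhibitor of TGF-beta and BMP signalling in cartilage and bone, fell by 0.85 with GREM1 (adjusted p = 0.0284) and the glypican Gpc1 rose by 0.86 (adjusted p = 0.00564). The mean of Aspn with GREM1 was 3.54, below the filter level (3.89 to 4.02), against 4.43 with BMP4 and 4.39 in controls. Aspn thus owed its place in the fit to the groups where it was higher, and its calls in both contrasts with GREM1 are only a description. In the paired fit 3 were higher and 3 lower with GREM1, against 11.6% of all genes in either direction, and Sdc3 passed in BMP4 against control (0.56, adjusted p = 0.0339, or 0.0504 without the block). Between BMP4 and GREM1, 7 of the 15 passed, against 6.45% of all genes. The syndecan Sdc3 (0.86), the glypican Gpc6 (0.89), Aspn (0.89) and Cspg4 (0.56) were higher with BMP4 and Gpc1 (-0.84), Gpc4 (-0.67) and Sdc4 (-0.50) lower (the largest adjusted p = 0.0174).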
